A study of Homo sapiens with 12 samples.

Results

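Connexins and pannexin 1 were followed in RD cells, a human tumour line established from rhabdomyosarcoma, a soft-tissue cancer with features of developing skeletal muscle. The 5 genes were GJA1, GJA5, GJC1, GJD4 and PANX1, taken by name from a table of 26485 gene symbols. GJA5 and GJD4 were chosen by their measured reads, which rose from near 0 in one construct, titled ish, so their values in that construct are a description with no test. No value was named for the choice of GJA1, GJC1 and PANX1. All 5 passed the low-count filter that left 15206 genes for testing, but GJA5 and GJD4 passed it only through the ish libraries with doxycycline.

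Every library came from RD cells in which doxycycline switches on a hairpin RNA that targets NT5E, the gene of CD73. There were 2 constructs, ish and ish2, whose hairpin sequences were not used here. Each was grown for 96 h with doxycycline (Dox) at 10 ng/mL (CD73 knockdown per the labels) or without it (control per the labels), with 3 libraries in each of the 4 groups. No group received Dox with a hairpin against another target, so Dox itself, the hairpin and the loss of NT5E cannot be told apart. Nothing in the labels says that the libraries of a group are separate cultures, and the p-values measure only the spread between these libraries. Mapped gene counts ran from 26566603 to 32692207 per library.

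NT5E ran from 14.9 to 18 CPM (read counts scaled to a common library size, with TMM factors) in ish without Dox and from 1.23 to 1.94 CPM with it. In ish2 it ran from 22.1 to 24.1 CPM without Dox and from 14.1 to 15.2 CPM with it. Muscle genes were present in all groups: the determination factor MYOD1 averaged at least 112.0 ± 4.71 CPM (SD, n = 3), its lowest group mean, which was in ish without Dox.

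Connexins are membrane proteins that assemble into hemichannels, and hemichannels of touching cells dock to form gap junctions, through which ions and small molecules pass between cells. In muscle, gap junctions join myoblasts before and during fusion and are lost from mature skeletal fibres. Pannexin 1 forms channels in the plasma membrane that do not normally dock and that release ATP from the cell. Extracellular ATP is the starting material of the chain of enzymes in which CD73 makes adenosine.

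GJA1 encodes connexin 43, the most widespread connexin, which myoblasts also make. GJC1 encodes connexin 45, known from early heart, the cardiac conduction system and smooth muscle. GJA5 encodes connexin 40, known from atrial muscle and arterial endothelium. GJD4 encodes connexin 40.1, whose mouse counterpart is known from developing skeletal muscle. On GRCh38, in the GENCODE annotation, GJA1 lies at chr6:121435577-121449727 (plus strand), GJA5 at chr1:147756199-147773362 (minus), GJC1 at chr17:44798448-44830816 (minus), GJD4 at chr10:35605410-35608935 (plus) and PANX1 at chr11:94128928-94181972 (plus). The members lie on 5 different chromosomes. Among the members, annotated antisense genes overlap GJA5 (AC241644.3) and GJD4 (AL121749.1). No source used here says whether the counting used strand, so reads of these pairs cannot be told apart. A processed pseudogene of GJA1, GJA1P1, is annotated on chromosome 5, and reads shared with it may have been set aside.

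The promoters of the genes that changed most are shown because the E-box, CANNTG, is the general motif of the muscle factors of the MyoD family, and TGANTCA is that of AP-1. The windows are RefSeq sequences of GRCh38.p14, from 250 bases before to 50 bases after an annotated start. That start can differ from the GENCODE start given above. The windows of GJD4 (ending at 35605390) and PANX1 (ending at 94128890) lie wholly before the GENCODE starts of these genes. They cover 4 of the 5 members, all but GJC1, and hold 2 windows for GJA5. Capitals mark each match to CANNTG or TGANTCA on either strand.
GJD4, chr10:35605091-35605390, plus strand: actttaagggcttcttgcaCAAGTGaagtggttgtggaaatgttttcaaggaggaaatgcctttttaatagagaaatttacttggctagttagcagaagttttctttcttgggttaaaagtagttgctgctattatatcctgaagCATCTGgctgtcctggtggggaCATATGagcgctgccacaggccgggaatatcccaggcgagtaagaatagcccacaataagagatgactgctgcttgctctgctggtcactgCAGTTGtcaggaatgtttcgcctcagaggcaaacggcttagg
GJA5, chr1:147773302-147773601, minus strand: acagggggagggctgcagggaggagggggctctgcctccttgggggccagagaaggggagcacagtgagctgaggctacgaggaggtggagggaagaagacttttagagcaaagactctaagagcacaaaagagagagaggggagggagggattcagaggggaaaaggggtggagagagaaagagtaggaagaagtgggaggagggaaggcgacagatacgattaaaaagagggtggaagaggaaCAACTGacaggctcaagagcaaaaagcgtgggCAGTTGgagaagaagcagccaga
GJA1, chr6:121435396-121435695, plus strand: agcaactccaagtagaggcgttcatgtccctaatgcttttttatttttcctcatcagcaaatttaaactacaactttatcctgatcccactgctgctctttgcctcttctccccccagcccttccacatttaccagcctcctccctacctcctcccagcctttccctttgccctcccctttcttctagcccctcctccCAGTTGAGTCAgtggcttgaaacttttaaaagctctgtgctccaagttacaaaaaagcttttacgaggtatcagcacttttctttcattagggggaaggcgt
The GJD4 window holds 4 matches to CANNTG, the GJA5 window shown holds 2 and the GJA1 window holds 1. The other GJA5 window, chr1:147760553-147760852, holds none. CANNTG stands in 68.7% of the 35116 promoter windows searched, so its presence is common. Among the 4 members with a window, GJA1 alone has TGANTCA, which stands in 7.71% of windows; there it overlaps the CANNTG match. Neither GJD4 nor GJA5 has CAGCTG, which stands in 17.9% of windows and has 1 match in the PANX1 window, nor GGGCGG, a site of SP-family factors found in 45% of windows. These matches describe the letters of these windows and were not tested for binding.

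GJA1 fell with Dox in both constructs, and far more in ish. In ish without Dox its level was 116.7, 129.5 and 124.5 CPM in replicates 1, 2 and 3, and with Dox it was 23.1, 21.2 and 22.2 CPM. In ish2 it was 111.1, 116.9 and 121.7 CPM without Dox and 93.0, 91.6 and 90.7 CPM with it. In each construct the libraries with Dox did not overlap those without it, and the ish Dox libraries lay far below every other library. The fall was 5.58-fold in ish (log2 fold change -2.48, SE 0.04, edgeR adjusted p = 2.09e-31) and 1.27-fold in ish2 (-0.35, SE 0.04, edgeR adjusted p = 4.19e-10). The difference between these effects was 2.13 on the log2 scale (SE 0.06, edgeR adjusted p = 6.22e-26). In bulk RNA, fewer cells with a transcript and less of it per cell cannot be told apart.

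GJC1 also fell in both constructs, to a more similar extent. In ish its level was 71.8, 68.9 and 65.7 CPM without Dox and 41.5, 39.0 and 42.3 CPM with it. In ish2 it was 74.1, 68.0 and 73.3 CPM without Dox and 47.7, 46.9 and 49.2 CPM with it. The Dox and no-Dox libraries did not overlap in either construct. The fall was 1.68-fold in ish (log2 fold change -0.75, SE 0.04, edgeR adjusted p = 1.19e-18) and 1.5-fold in ish2 (-0.58, SE 0.04, edgeR adjusted p = 4.8e-15). The fall was smaller in ish2 by 0.17 on the log2 scale (SE 0.06, edgeR adjusted p = 0.00948). That call was lost with DESeq2 (adjusted p = 0.0575), without ish Dox replicate 2 (0.055) and without ish2 no-Dox replicate 2 (0.0507; range over all alternatives 0.00325 to 0.0575).

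PANX1 rose with Dox, mainly in ish2. In ish its level was 28.2, 28.0 and 28.7 CPM without Dox and 29.9, 31.7 and 31.0 CPM with it. In ish2 it was 30.6, 29.8 and 32.2 CPM without Dox and 42.6, 42.8 and 43.1 CPM with it. The 3 ish2 Dox libraries were the highest of the 12, and the ish Dox libraries lay within the range of ish2 without Dox. The rise was 1.09-fold in ish (log2 fold change 0.12, SE 0.04, edgeR adjusted p = 0.00881) and 1.39-fold in ish2 (0.47, SE 0.04, edgeR adjusted p = 2.75e-12). The rise was larger in ish2 by 0.35 on the log2 scale (SE 0.06, edgeR adjusted p = 3.42e-06). Without ish Dox replicate 2 the rise in ish lost its call (adjusted p = 0.0558; range over all alternatives 0.0046 to 0.0558).

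GJD4 and GJA5, the members chosen for it, stood above 1 CPM in ish with Dox and in no other group. GJD4 had 3, 1 and 4 reads in ish without Dox (replicates 1 to 3) and 129, 111 and 149 reads with Dox. GJA5 had 2, 4 and 3 reads without Dox and 141, 135 and 134 with it. In CPM, GJD4 with Dox was 4.17 ± 0.452 (SD, n = 3) and GJA5 was 4.41 ± 0.259. Over the 3 libraries of a group, the scaled ratio of Dox to no Dox was 49.1 for GJD4 (exact 95% interval 24.7 to 114.5, counting error only) and 46.0 for GJA5 (24.0 to 101.3). These ratios describe the choice of the genes and were not tested.

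In ish2 neither gene had more than 3 reads in any library. GJD4 had 1, 3 and 0 reads without Dox and 0, 1 and 1 with it, a scaled ratio of 0.469 with an exact 95% interval of 0.0424 to 3.27. GJA5 had 3, 1 and 1 reads without Dox and 0 in each Dox library, where a count of 0 allows up to 0.0343 CPM (3 reads over the group). The exact 95% interval of the ratio ran from 0 to 1.02. Both intervals include a ratio of 1, so no change of either gene was detectable in ish2. At this depth the levels of GJA5 and GJD4 in ish2 with Dox were at or under the limit of detection.

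**Figure D1:**
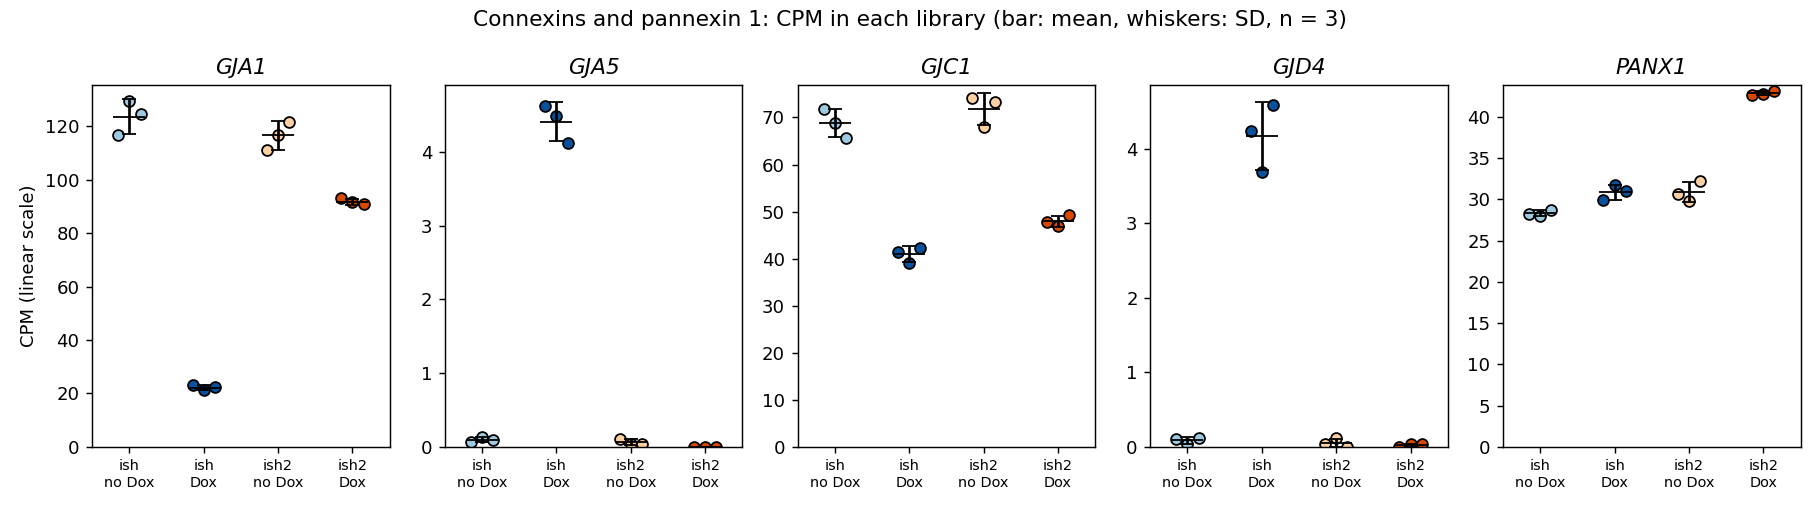
CPM of each member (y axis, linear from 0, a separate scale for each gene) in the 4 groups (x axis). Points are libraries, bars are means and whiskers are SD, n = 3. GJA1 is lowest in ish with Dox (21.2 to 23.1 CPM), GJA5 and GJD4 stand above 3 CPM in that group alone, and PANX1 is highest in ish2 with Dox (42.6 to 43.1 CPM).

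Called genes were common, which sets the scale for these results. In ish, 2 of the 3 tested members fell and 1 rose, while the fit called 78.6% of all tested genes (39.5% lower and 39.1% higher). Falls past 2-fold, as for GJA1, made up 10.5% of tested genes. Of the same 3 members, 2 fell and 1 rose in ish2, against 65% of all tested genes called (31.1% lower and 33.9% higher). The effect was higher in ish2 than in ish for all 3 members tested, where the difference was called for 72.6% of all tested genes (37.4% higher and 35.2% lower).

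Without Dox, of the 3 members tested, PANX1 was called higher in ish2 than in ish (log2 fold change 0.12, SE 0.04, edgeR adjusted p = 0.0333), a 1.09-fold difference. The same comparison called 26.1% of tested genes, 13.7% higher (2088) and 12.4% lower (1886); with DESeq2, 2001 of 3129 called genes were higher. The PANX1 call was lost in 8 of 18 alternatives (adjusted p up to 0.169), among them leaving out any 1 of the ish libraries or replicate 1 or 3 of ish2. GJA1 had a log2 fold change of -0.08 (SE 0.03, edgeR adjusted p = 0.0709), which 4 alternatives called (among them those without ish replicate 1 or ish2 replicate 3), and GJC1 one of 0.06 (SE 0.04, edgeR adjusted p = 0.245). GJA5 had 9 reads over the ish libraries and 5 over the ish2 libraries, and GJD4 had 8 and 4.

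To compare genes, levels were divided by exon length in GENCODE. In ish without Dox, GJA1 was first at 36.2 ± 1.89 CPM per kb (SD, n = 3), followed by PANX1 at 10.2 ± 0.113, GJC1 at 7.94 ± 0.354 and GJD3, which encodes connexin 31.9, at 5.53 ± 0.453. The order was the same in ish2 without Dox, from 34.2 ± 1.56 for GJA1 to 5.38 ± 0.399 for GJD3. In ish with Dox, PANX1 came first at 11.2 ± 0.328 CPM per kb and GJA1 second at 6.49 ± 0.283. GJC1 at 4.73 ± 0.200 and GJD3 at 4.59 ± 0.0903 did not differ beyond their spread there, and GJD4 at 2.64 ± 0.286 and GJA5 at 1.34 ± 0.0788 stood next. In ish2 with Dox, GJA1 kept the first place at 26.9 ± 0.335, before PANX1 at 15.5 ± 0.0889, GJD3 at 6.31 ± 0.302 and GJC1 at 5.54 ± 0.132. No source used here gives the authors' annotation, so these lengths may differ from the counted ones. An annotated antisense gene, AC080112.1, overlaps GJD3, so the limit given for GJA5 and GJD4 also holds for GJD3: reads of that pair cannot be told apart.

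Within a library, the ratio of PANX1 to GJA1 per kb was 0.283 ± 0.0157 in ish without Dox and 1.72 ± 0.126 with it. In ish2 it was 0.327 ± 0.0122 without Dox and 0.575 ± 0.0104 with it. The ratio of GJC1 to GJA1 was 0.220 ± 0.0195 and 0.729 ± 0.0227 in ish, and 0.243 ± 0.0176 and 0.206 ± 0.00669 in ish2. So the balance of GJC1 to GJA1 moved in opposite directions in the constructs, with no overlap between Dox and no-Dox libraries in either.

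The summed RNA of the connexin genes was lower with Dox in both constructs, though single connexins moved in both directions. Summed over the 20 connexin genes of the table, their level was 50.8 ± 1.79 CPM per kb in ish without Dox and 20.6 ± 0.675 with it, and 48.8 ± 1.37 and 40.5 ± 0.578 in ish2. GJA1 made up 71.3% ± 1.24 of this sum in ish without Dox and 31.4% ± 0.649 with it, and 69.9% ± 1.25 and 66.3% ± 0.292 in ish2. In ish with Dox, GJC1 held 22.9% ± 0.321, GJD3 22.3% ± 1.19, GJD4 12.8% ± 1.03 and GJA5 6.50% ± 0.475. By this measure GJA1 made up most of the sum in every group but ish with Dox. Shares of connexin reads, not divided by length, gave another makeup of ish with Dox: GJC1 held 51.9% ± 0.641, GJA1 28.1% ± 0.544, and GJD3, GJD4 and GJA5 from 5.16% to 5.60% each. By reads GJA1 held 59.3% to 61.5% in the other groups and GJC1 31.6% to 36.6%.

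**Figure D2:**
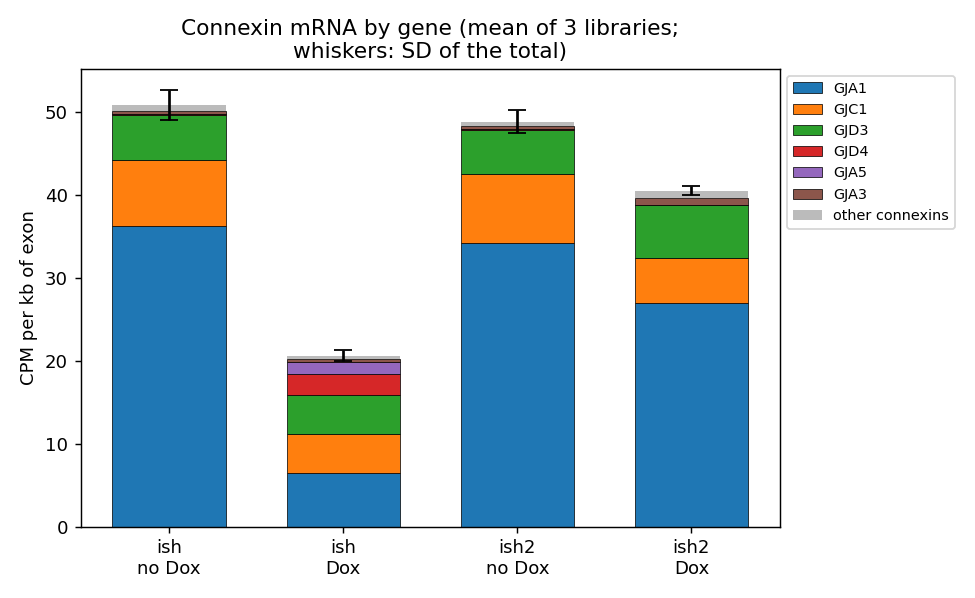
Summed connexin level in CPM per kb of exon (y axis, from 0) in the 4 groups (x axis). Coloured segments are the means of 3 libraries for each gene and whiskers are the SD of the total. The total in ish with Dox (20.6) lies below the other groups (40.5 to 50.8), and only there are the GJD4 and GJA5 segments visible.

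Beyond the members, the table held 18 other connexins and pannexins. Of these, 9 had under 10 reads over all 12 libraries and 5 could be tested, of which 4 are described here. GJA3 (connexin 46, known from the eye lens) rose in ish2 from 1.73, 2.07 and 1.70 CPM to 4.35, 4.19 and 4.12 CPM, rising 2.30-fold (1.2 on the log2 scale, SE 0.14, edgeR adjusted p = 1.26e-09). All its ish2 Dox libraries lay above all other libraries. In ish its change was 0.33 (SE 0.15, edgeR adjusted p = 0.042), a call that 12 of 18 alternatives did not keep (adjusted p 0.0514 to 0.165), among them leaving out any ish Dox library or ish no-Dox replicate 2 or 3.

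PANX2, the pannexin known mainly from the nervous system, moved in opposite directions. In ish it went from 3.06, 2.58 and 2.67 CPM to 1.25, 1.10 and 0.985 CPM, which is 2.50-fold lower (-1.32 on the log2 scale, SE 0.16, edgeR adjusted p = 1.59e-09). The ish2 libraries went from 2.78, 2.74 and 3.25 CPM to 3.63, 3.78 and 3.74 CPM, a 1.27-fold rise (0.34, SE 0.13, edgeR adjusted p = 0.0161). The groups did not overlap in either construct. The rise was not called by 4 alternatives, namely DESeq2 (adjusted p = 0.0991) and leaving out ish2 Dox replicate 2 or ish2 no-Dox replicate 1 or 2.

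GJD3 fell in ish (log2 fold change -0.27, SE 0.10, edgeR adjusted p = 0.0157) and rose in ish2 (0.23, SE 0.10, edgeR adjusted p = 0.0436). Its fall was lost with DESeq2 and without ish no-Dox replicate 3, and its rise was lost in 13 of 18 (adjusted p up to 0.195). PANX3, a pannexin of cartilage and skin, was not called in either construct (0.55, SE 0.26, edgeR adjusted p = 0.0526 in ish, and -0.32, SE 0.35, edgeR adjusted p = 0.445 in ish2), though 3 alternatives called it higher in ish, among them those without ish Dox replicate 1 or ish no-Dox replicate 1. Of all 5 tested genes, edgeR called 4 in each construct and DESeq2 called 2. Without Dox, edgeR and DESeq2 called none of the 5 between the lines, and none had an unadjusted p under 0.05 in edgeR.

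**Figure D3:**
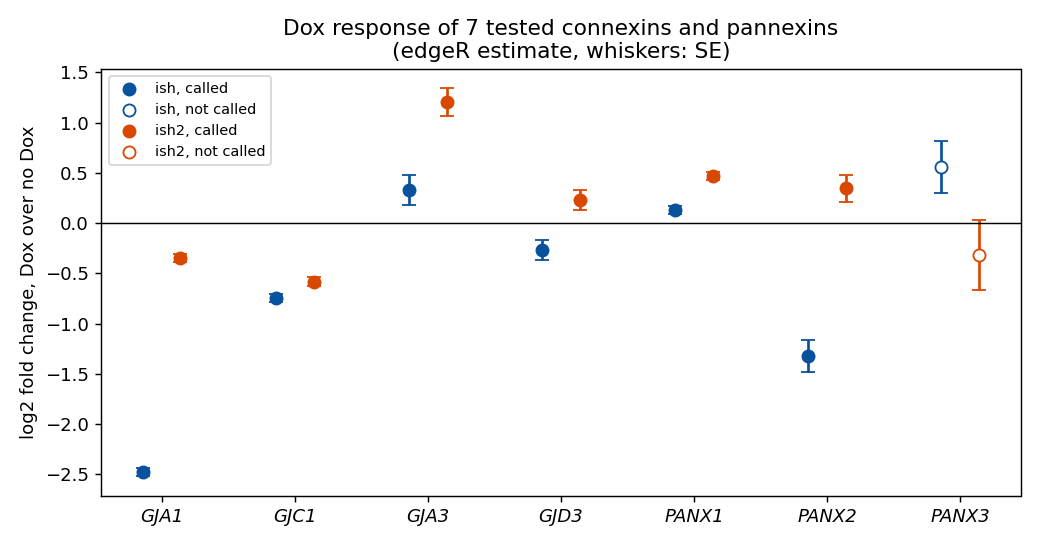
Log2 fold change of Dox over no Dox (y axis) for 7 tested connexins and pannexins (x axis), in ish (blue) and ish2 (orange). Points are edgeR estimates, filled where called and open where not, and whiskers are SE. GJA1 lies lowest in ish (-2.48), GJA3 highest in ish2 (1.2), and GJD3 and PANX2 lie on opposite sides of 0. GJA5 and GJD4 are left out because their rise in ish chose them and their few reads in ish2 give no stable fold.

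Genes that carry, modify or clear gap junctions changed in both directions. The median log2 fold change of all tested genes was -0.008 in ish and 0.013 in ish2. Over all tested genes, 39.1% were called higher and 39.5% lower in ish, and 33.9% and 31.1% in ish2. These shares set the scale for the counts of each list and marker set below. Of 13 scaffold and adherens partners, 6 rose and 5 fell in ish (median log2 fold change 0.03), and 4 rose and 4 fell in ish2 (-0.01). CAV3, the caveolin of muscle, rose in ish by 3.94 on the log2 scale (SE 0.06) and CDH2, which encodes N-cadherin, fell by 1.55 (SE 0.04). In ish2 CAV1, the general caveolin, rose by 0.96 (SE 0.04) and DBN1, an actin-binding partner of connexin 43, fell by 0.58 (SE 0.03).

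Of 14 tested kinases that act on connexin 43, 6 rose and 7 fell in ish (median -0.01), and 6 rose and 6 fell in ish2 (-0.05). The mitotic kinase CDK1 fell by 0.94 (SE 0.03) and the protein kinase C gene PRKCD by 0.93 (SE 0.05) in ish. In ish2 PRKCE rose by 0.98 (SE 0.06) and AKT1 fell by 0.87 (SE 0.03). Of 15 genes of connexin trafficking and turnover, 6 rose and 7 fell in ish (median -0.06), and 8 rose and 4 fell in ish2 (0.08). SMURF2, a ubiquitin ligase, fell by 1.74 (SE 0.05) in ish and rose by 0.95 (SE 0.04) in ish2, whereas the tubulin gene TUBB fell by 0.69 (SE 0.03) in ish and by 0.73 (SE 0.03) in ish2.

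Around PANX1, 10 genes of other ATP release channels and transporters were tested. In ish 4 rose and 6 fell (median -0.45), and in ish2 3 rose and 5 fell (-0.15). LRRC8C and LRRC8D, subunits of the volume-regulated anion channel, fell by 1.38 (SE 0.05) and 1.29 (SE 0.04) in ish. In ish2 LRRC8C was not called (-0.08, SE 0.05, edgeR adjusted p = 0.114) and LRRC8D rose by 0.13 (SE 0.04, edgeR adjusted p = 0.00274). LRRC8A, the subunit that channel requires, rose by 0.63 (SE 0.03) in ish and fell by 0.76 (SE 0.03) in ish2. In ish2 TTYH3, a tweety family gene, fell by 0.61 (SE 0.03). Of 9 tested activators and partners of pannexin 1, 5 rose and 2 fell in ish (median 0.28), and 6 rose and none fell in ish2 (0.22). The share called in either direction was near that of all tested genes, 78.6% in ish and 65% in ish2. STIM1, a calcium sensor, rose by 0.86 (SE 0.04) and the ATP-gated channel P2RX4 by 0.48 (SE 0.06) in ish. Apart from LRRC8C and LRRC8D in ish2, each gene named in these lists was called by edgeR with an adjusted p of at most 5.04e-09.

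Most marker genes of skeletal muscle rose in ish, the construct whose rise of GJA5 and GJD4 chose those genes, and most fell in ish2. Of 11 tested, 10 rose and 1 fell in ish (median 1.6), with MYH8, the perinatal myosin heavy chain, up by 3.58 (SE 0.06) and MYF6 by 3.37 (SE 0.36). In ish2 2 rose and 7 fell (median -0.63), with MYOG down by 2.24 (SE 0.10) and MYH8 by 1.81 (SE 0.11). Their summed level ran from 2853 to 2949 CPM in ish without Dox, 4944 to 5224 with it, 3004 to 3061 in ish2 without Dox and 2582 to 2627 with it. MYF5 was at 0 reads in all libraries but 1, an ish Dox library with 1 read. The part of muscle marker genes in the changes of the members was not tested.

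Cell types that normally make GJA5 were little represented. Of 10 endothelial markers, 8 had a mean under 1 CPM in each group (all but TEK and ESAM, or TEK and CLDN5 in ish with Dox), and the summed level of the 10 was 7.29 to 7.97 CPM in ish with Dox against 11.5 to 11.9 without it. In ish2 the sum was 12.5 to 13.4 CPM without Dox and 12.1 to 12.8 with it. The defining genes PECAM1 and CDH5 averaged 0.0433 ± 0.0200 and 0.0331 ± 0.0332 CPM in ish with Dox, and 0.149 ± 0.0669 and 0.0527 ± 0.0351 CPM without it. In ish, 1 of 4 tested endothelial markers rose, CLDN5 by 2.89 (SE 0.18), and 2 fell, among them TEK by 2.10 (SE 0.10); in ish2 CLDN5 alone was called and fell by 1.11 (SE 0.33). Of 10 heart muscle markers, NPPB and TBX5 were at 0 reads in all groups, and the sum ran from 188.2 to 203.4 CPM in ish without Dox, 62.5 to 70.5 with it, 219.1 to 229.5 in ish2 without Dox and 361.6 to 373.7 with it. In ish 2 of 5 rose, RYR2 by 2.97 (SE 0.38) among them, and 3 fell, with TNNI3 down by 1.96 (SE 0.15). In ish2 2 rose, NPPA by 1.30 (SE 0.32) among them.

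Markers of other types were few. Epithelial markers fell in ish at 3 of 3 tested, KRT18 by 2.17 (SE 0.07) and KRT8 by 1.92 (SE 0.18), and rose in ish2 at 3 of 3, KRT8 by 0.98 (SE 0.13) and CLDN4 by 0.75 (SE 0.23). Their sum of 9 genes ran from 7.12 to 9.37 CPM in ish with Dox and from 33.0 to 62.7 CPM over the other groups. Of 5 tested smooth muscle markers, 1 rose and 2 fell in ish, with TAGLN up by 0.77 (SE 0.07) and CNN1 down by 0.63 (SE 0.11). In ish2 4 fell, MYH11 by 1.30 (SE 0.28) and LMOD1 by 0.83 (SE 0.31), the latter call being lost in 4 alternatives, among them leaving out ish2 Dox replicate 1 or 3 or ish2 no-Dox replicate 2. Their sum of 7 genes ran from 35.9 to 47.2 CPM over the 4 groups. MYOCD, the master factor of smooth muscle, was at 0 reads throughout. The part of these markers was not tested.

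Genes that flank the members on their chromosomes were read from RefSeq, with the nearest gene of the count table on each side. Of the 8 flanking genes tested, 5 rose and 2 fell in ish, and 2 rose and 5 fell in ish2. Over all tested genes, 39.1% were called higher and 39.5% lower in ish, and 33.9% and 31.1% in ish2. Both genes beside GJD4 were called higher in ish, the construct whose values chose GJD4. A link between these genes and GJD4 was not tested. FZD8, a Wnt receptor 29.3 kb away, went from a mean of 0.235 to 3.06 CPM (log2 fold change 3.68, SE 0.23, edgeR adjusted p = 1.18e-16). CCNY, a cyclin on the other side 32.7 kb away, went from 66.3 to 149.6 CPM (1.17, SE 0.03, edgeR adjusted p = 5.21e-28). In ish2 FZD8 was also called higher (0.83, SE 0.35, edgeR adjusted p = 0.0391), a call lost in 7 of 18 alternatives (among them leaving out ish2 Dox replicate 1 or 2 or any ish2 no-Dox library), and CCNY fell by 0.23 (SE 0.04, edgeR adjusted p = 7.83e-07).

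Beside GJA1, TBC1D32, a gene of cilium function 100.9 kb away, fell by 1.5 (SE 0.04, edgeR adjusted p = 9.96e-30) in ish and by 0.32 (SE 0.03, edgeR adjusted p = 1.32e-10) in ish2. The heat shock factor gene HSF2, 949.8 kb away on the other side, rose by 0.35 (SE 0.04) in ish and fell by 0.11 (SE 0.05) in ish2, a call lost with DESeq2 and without ish2 Dox replicate 1 or ish2 no-Dox replicate 3. ADAM11, 12.3 kb from GJC1, fell by 1.04 (SE 0.07, edgeR adjusted p = 4.87e-16) in ish and by 0.62 (SE 0.07, edgeR adjusted p = 4.12e-10) in ish2. HIGD1B, 13.5 kb away on the other side, was not called in either construct (edgeR adjusted p = 0.183 and 0.377). ACP6, 85.7 kb from GJA5, rose by 0.30 (SE 0.06) in ish and by 0.43 (SE 0.07) in ish2. HEPHL1, 14.6 kb from PANX1, had under 1 CPM in every group and rose by 1.01 (SE 0.33) in ish and fell by 1.26 (SE 0.45) in ish2, a call lost without ish2 Dox replicate 2 or ish2 no-Dox replicate 3. IZUMO1R on the other side was too low to test.

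**Figure D4:**
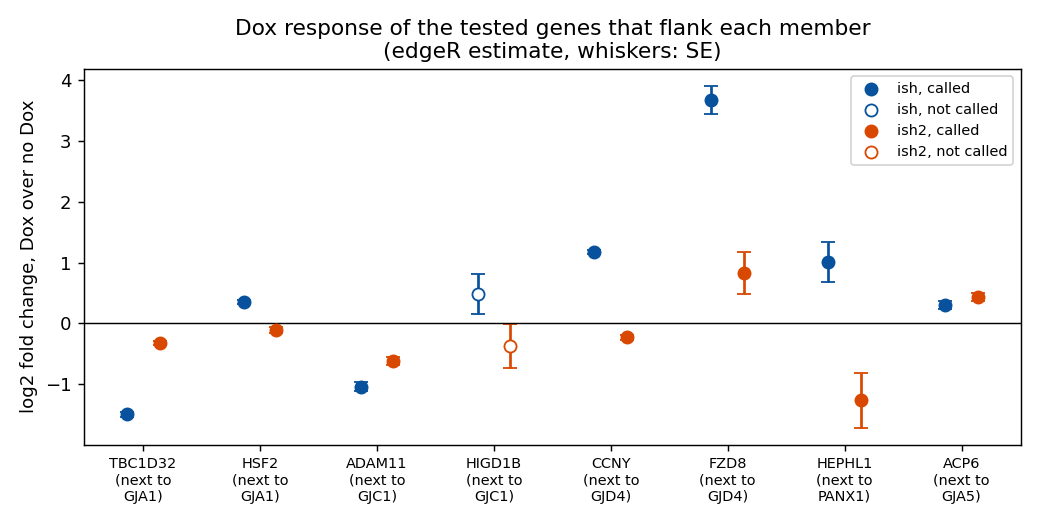
Log2 fold change of Dox over no Dox (y axis) for the tested genes that flank each member (x axis), in ish (blue) and ish2 (orange). Points are edgeR estimates, filled where called and open where not, and whiskers are SE. FZD8 (3.68) and CCNY (1.17) beside GJD4 lie above 0 in ish, and TBC1D32 beside GJA1 and ADAM11 beside GJC1 lie below 0 in both constructs.

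Genes with the pattern most like each member were found by the root mean square distance of gene-centred log2 CPM over the 12 libraries, among 12919 genes. FGF11 was nearest to GJA1 (distance 0.0773), with mean levels of 63.6 and 11 CPM in ish without and with Dox and 59.1 and 49.8 CPM in ish2, followed by ARHGEF16 (0.0981) and ARMC1 (0.104). MARK3 (0.043), WHSC1 (0.0455) and MCAM (0.0538) were nearest to GJC1, and MTMR2 (0.0421), PIGA (0.0439) and C9orf78 (0.045) to PANX1. CACNA1S was nearest to GJA5 (0.351), with 2.76 and 48.4 CPM in ish and 1.78 and 0.81 CPM in ish2, followed by CEACAM16 (0.364) and MYH7 (0.415). WIPF3 (0.339), DEPTOR (0.451) and NPNT (0.453) were nearest to GJD4. Distances to GJA5 and GJD4 were larger, and their log2 CPM in 3 of the 4 groups rests on a few reads. Over the 4 group means in place of the libraries, DEPTOR came first for GJD4 and PEG3 for GJA5, and each of GJA5 and GJD4 was the third nearest of the other; these were chosen for the same rise.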

How the data were processed

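Counts per gene symbol for 12 RNA-seq libraries were used as the authors deposited them, as raw whole-number counts. Per the labels' protocols, 500000 cells were seeded, attached for 24 h and treated for 96 h, and stranded mRNA libraries were read as 75-base pairs. Tools listed, without roles, in the submitters' processing notes are STAR 2.7.3a, Subread 1.6.3, featureCounts and Trim Galore 0.6.4, with the build GRCh38; no source used here gives the annotation. The 5 special rows of unassigned reads (21.0% to 24.4% of each column) were left out. Titles and column headers gave groups; header Sh1 was taken as ish.

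Genes were filtered (filterByExpr) and scaled by TMM, and edgeR 4.0.16 (R 4.3.3, robust quasi-likelihood, 4 group means) gave the Dox effect in each construct, their difference and the comparison without Dox. Genes were called at a Benjamini-Hochberg adjusted p under 0.05 over all 15206 tested. SE is the log2 fold change over the root of F. The fit was also run on simulated counts with known changes. These had the same dispersion for every gene, so that run does not show how reliable the calls are in these libraries. Levels are CPM, and log2 CPM used a prior count of 2. Ratios of few reads carry exact conditional binomial intervals at 95%. Exon lengths and positions are from GENCODE release 29. Of 141 entries on 12 gene lists, 140 were in the table, 4 through an older symbol (CALHM4, CALHM5 and CALHM6 as FAM26D, FAM26E and FAM26F, and MYMK as TMEM8C); 3 genes are on more than one list. The text names NT5E, the members, every tested connexin and pannexin, the 2 called genes with the largest change per list and construct, the 3 genes nearest in pattern and the flanking genes; a few of these are not reported here, and further markers were named after their values were seen. Alternatives were DESeq2 1.42.0, other scaling, no filter, a replicate block, 6-library fits and leaving out each library. The members and lists were chosen with earlier results of these data known.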

Additional observations from a re-analysis of the deposited data

Results flagged for a closer look

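The Dox effect differed between the constructs for 6 connexins and pannexins described here, by a test of the difference itself (ish2 effect minus ish effect, edgeR, n = 3 libraries per group). GJA1 differed by 2.13 on the log2 scale, since its fall was larger in ish. PANX2 differed by 1.66 (SE 0.20, edgeR adjusted p = 3.15e-09), falling in ish and rising in ish2. GJA3 differed by 0.87 (SE 0.20, edgeR adjusted p = 0.000258) and PANX1 by 0.35, each with the larger rise in ish2. GJD3 differed by 0.50 (SE 0.14, edgeR adjusted p = 0.00211), falling in ish and rising in ish2, though the rise was called in 5 of 18 alternatives and lost in 13. GJC1 differed by 0.17, with the smaller fall in ish2, a call lost with DESeq2 (adjusted p = 0.0575) and without ish Dox replicate 2 or ish2 no-Dox replicate 2. A difference was called for 72.6% of all tested genes. The fall of NT5E was 10.7-fold in ish but 1.59-fold in ish2, so the constructs also differed in knockdown, and its part in these differences was not tested.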

How the results depend on the processing

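Each result was recomputed under 18 alternatives; fits from 6 libraries give no difference between constructs, and GJA5 and GJD4 did not pass their filter in ish2 alone. The falls of GJA1 and GJC1 in each construct, the rise of PANX1 in ish2 and the differences between constructs for GJA1 and PANX1 kept their direction and call under every alternative run. The GJC1 difference was 0.148 with DESeq2, not called, and 0.123 to 0.195 with 1 library left out. The rise of PANX1 in ish ran from 0.101 to 0.143 with 1 library left out. Without Dox, PANX1 in ish2 against ish lost its call with library size only (0.113), no low-count filter (0.122) and DESeq2 (0.138), and ran from 0.095 to 0.150 with 1 library left out. GJA1 in that comparison gained a call with library size only (-0.096) and no filter (-0.087), and ran from -0.125 to -0.051. In ish2, the fitted values of GJA5 (edgeR adjusted p = 0.0123; 0.0102 to 0.0772 over the alternatives) and GJD4 (0.448; 0.212 to 0.884) rest on 5 and 6 reads over both groups, so they are neither bounds nor calls; with 1 library left out they ran from -4.224 to -3.297 and from -1.537 to 0.268. The causes of these changes were not tested. Among the other genes followed, 47 of the alternative values lost a call, 4 gained one and 1237 did neither. Counts of called genes stayed within 1.5 times. The replicate numbers did not pair the libraries (residual correlations of -0.0798 to 0.0381; only 3 of the 12 correlated best with a library of their number). A replicate block gave 11926, 9835, 11017 and 3918 called genes in ish, ish2, the difference and the comparison without Dox, and changed no member's call.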
